A study of Mus musculus with 2 samples.

Results

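Retinoids are made and used in a short chain of steps, and 9 genes of that chain were followed here through 2 RNA sequencing libraries of immature mouse oligodendrocytes. Aldh1a1, Aldh1a2 and Aldh1a3 encode the dehydrogenases that oxidise retinal to retinoic acid. Lrat esterifies retinol for storage, Stra6 is the membrane receptor through which cells take up retinol from its plasma carrier, and Dhrs3 reduces retinal back to retinol. Crabp1 and Crabp2 bind retinoic acid in the cytoplasm, and Cyp26b1 hydroxylates it for removal. The genes were taken by symbol from the deposited library tables, and all 9 were found among the 18651 genes with a read in either library. They were proposed with the ratios between these libraries already known, so every ratio given here is a description of the members and supports nothing by itself.

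Retinoic acid acts through nuclear receptors of the RAR family, which bind DNA as pairs with RXR receptors. RXR receptors also pair with the thyroid hormone receptor, the receptor for the hormone used here to start differentiation. In the developing forebrain the meninges, the fibroblast-rich covering of the brain, are a known source of retinoic acid and express Aldh1a2.

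Oligodendrocyte precursors had been purified from cortex of C57BL/6 mice at postnatal days 4 to 7 by immunopanning on anti-GalC and anti-O4 plates. They were grown with NT3 at 1 ng/ml, CNTF at 10 ng/ml, and bFGF and PDGF-AA at 20 ng/ml each. Both cultures were then differentiated for 2 days in 60 nM triiodothyronine (T3) after removal of PDGF-AA, bFGF and NT3. One library is labelled control with a wild type genotype and the other Seh1cKO with a mutant genotype, a conditional knockout of Seh1l, which encodes a nuclear pore and GATOR complex protein. The labels do not name the Cre driver, the deleted exons or the number of animals behind each culture. With 1 library per group no test of the genotype was possible. Bulk RNA does not tell fewer cells of a type from less RNA per cell.

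The libraries held 20730124 and 20599573 assigned reads. Seh1l was at 32.1 CPM (reads per 1000000 assigned reads) in control and 18.5 CPM in the library labelled Seh1cKO, a ratio of 0.577 (0.508 to 0.656). Here and below, the bounds in brackets are the exact 95% Clopper-Pearson interval from both counts and cover counting error only. All 12 oligodendrocyte lineage markers had reads in both libraries, with summed levels of 4716 CPM in control against 2680 CPM in Seh1cKO. Of the 12, 8 were at least 2-fold lower in Seh1cKO and 4 were within 2-fold. Markers of other cells were also present. The 10 astrocyte markers summed to 11701 CPM in control against 7518 CPM in Seh1cKO, above the oligodendrocyte sum in each library. Of these, Gfap was at 5200 and 2214 CPM. The 9 fibroblast markers, led by Col1a1, Col3a1 and Col5a1, summed to 175 CPM in control against 579 CPM in Seh1cKO, and the 8 markers of simple epithelia to 11.05 and 193 CPM. The keratins Krt8 and Krt18 led the epithelial sum in Seh1cKO at 78.7 and 63.9 CPM, while Epcam, an epithelial adhesion molecule, led it in control with 7.91 CPM against 7.04 CPM in Seh1cKO. Xist, which is transcribed from the inactive X of females, was at 0.868 CPM in control against 341 CPM in Seh1cKO. None of the retinoid members lies on chromosome X or Y, with 0 of 9 there, but the sex of the animals and the genotype cannot be told apart in these libraries.

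The upstream sequences of 3 members that were higher in Seh1cKO and of Lrat, the member that was lower, are shown because they adjoin the transcription starts of the genes with the clearest differences. They are from RefSeq on GRCm38.p6, end just before the first annotated base of the gene, and read 5′ to 3′ on the gene's strand. Capitals mark GC boxes (GGGCGG on either strand) and the TATA box motif (TATAAA on either strand).
Aldh1a2, chr9:71215539-71215788, plus strand: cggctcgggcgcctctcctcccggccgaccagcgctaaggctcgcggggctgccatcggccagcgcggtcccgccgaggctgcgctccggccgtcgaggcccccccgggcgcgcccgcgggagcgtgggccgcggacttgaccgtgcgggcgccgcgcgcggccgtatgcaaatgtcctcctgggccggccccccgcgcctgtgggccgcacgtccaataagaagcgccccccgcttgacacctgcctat
Crabp1, chr9:54764498-54764747, plus strand: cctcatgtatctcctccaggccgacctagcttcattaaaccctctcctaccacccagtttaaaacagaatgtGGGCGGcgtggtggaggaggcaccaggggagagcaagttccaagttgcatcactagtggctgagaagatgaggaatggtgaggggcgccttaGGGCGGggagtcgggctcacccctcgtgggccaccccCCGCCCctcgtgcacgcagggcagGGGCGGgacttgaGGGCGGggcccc
Cyp26b1, chr6:84593909-84594060, minus strand: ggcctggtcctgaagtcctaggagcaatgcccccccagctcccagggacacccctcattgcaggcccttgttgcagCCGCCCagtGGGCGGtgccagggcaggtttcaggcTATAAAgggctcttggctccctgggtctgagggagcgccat
Lrat, chr3:82903975-82904224, minus strand: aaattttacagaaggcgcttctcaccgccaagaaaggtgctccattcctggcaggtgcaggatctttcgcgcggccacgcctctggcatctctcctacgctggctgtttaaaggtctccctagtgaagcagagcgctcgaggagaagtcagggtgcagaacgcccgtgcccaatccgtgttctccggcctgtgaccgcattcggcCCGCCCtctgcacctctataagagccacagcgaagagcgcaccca

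These starts were of different kinds. The 250 bases before Aldh1a2 held 40 CpG pairs at 77.6% G and C, against medians of 6 pairs and 52.4% over 32817 promoter windows of the same length. The Crabp1 window held 5 GC boxes at 63.6% G and C, and the Cyp26b1 window 3, of which 2 are in the stretch shown. The 18 CpG pairs of the Lrat window came with 1 GC box. Across the 7 members with a promoter entry, 6 of 13 windows held a GC box, which 32.7% of all windows hold. The hexamer AGGTCA, the core element that retinoid and thyroid hormone receptors recognise, was searched on both strands and found in 0 of the 13 windows, against 14.0% of all windows. These counts describe only the letters in 250 bases. Some genes have several windows, and 2 of those of Dhrs3 overlap. Only the exact letters AGGTCA were searched, so no lack of receptor sites is read from the 0. Aldh1a3 and Crabp2 had no promoter entry.

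Most of the 9 genes had more reads in the Seh1cKO library. Aldh1a2, Aldh1a3, Crabp1, Crabp2, Cyp26b1 and Dhrs3 were each over 2-fold higher by the ratio of CPM, Aldh1a1 was 1.43-fold higher, Lrat was 3.12-fold lower, and Stra6 had under 10 reads in either library. Of all 13758 genes that reached 1 CPM on average over both libraries, called measured here, 4.91% were higher by 2-fold or more and 1.81% lower by as much on the same ratio. On the more cautious scale of log2(CPM + 1), which understates the difference of low genes, 4 of the 8 measured members were at least 2-fold higher (background 2.86%), 1 was at least 2-fold lower (background 1.29%) and 3 were within 2-fold. The members were chosen on this contrast, so nothing is read from these shares. Over all measured genes, 394 were higher and 178 lower, 68.9% of them higher, a share that was 56.9% on the deposited FPKM scale (reads scaled by transcript length and library size). The median log2 ratio of the 8 measured members was 1.02, beside 0.07 over all measured genes.

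**Figure D1:**
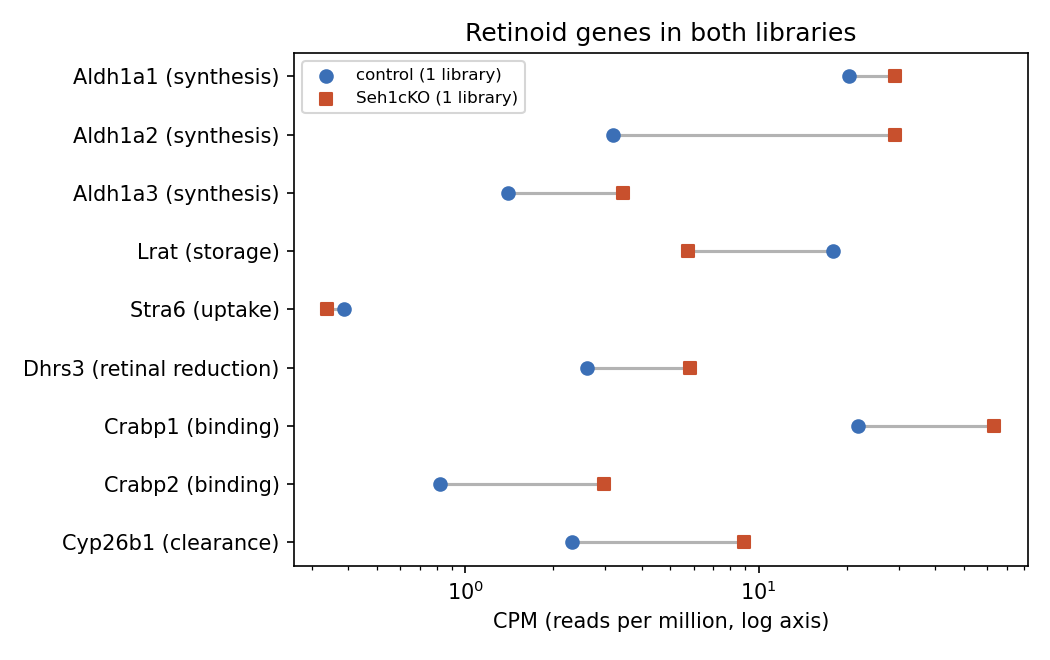
Levels of the 9 retinoid genes in CPM on a log axis, ordered by role, with the control library as circles and the Seh1cKO library as squares. Aldh1a2 has the longest line, from 3.18 to 29.2 CPM, Lrat runs the other way, from 17.8 to 5.73 CPM, and Stra6 is below 1 CPM in both.

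The 3 retinoic acid synthesising enzymes differed in size of difference. Aldh1a2 (chromosome 9, 71215789 to 71296243, plus strand), the main enzyme of embryonic retinoic acid synthesis, had 66 reads in control and 602 in Seh1cKO, or 3.18 and 29.2 CPM. Its level in Seh1cKO was 9.18-fold that in control (7.11 to 12.02), and its log2 ratio of 2.85 was the 18th highest of the 13758 measured genes. The interval of Aldh1a2 lay above that of every other member. Aldh1a1 (chromosome 19, 20492583 to 20643463, plus strand), a cytosolic enzyme of the same reaction, was at 20.3 CPM in control against 29.0 CPM in Seh1cKO. That is 1.43-fold higher (1.26 to 1.63), within 2-fold. Aldh1a3 (chromosome 7, 66390892 to 66427477, minus strand), the third enzyme, had 29 and 71 reads, or 1.40 and 3.45 CPM. It was 2.46-fold higher (1.58 to 3.94), an interval that reaches below 2-fold at this depth.

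Per transcript length, the make-up of the Aldh1a group differed between the libraries. Aldh1a1 stood at 9.96 FPKM in control and 14.28 FPKM in Seh1cKO, Aldh1a2 at 1.4 and 12.87 FPKM, and Aldh1a3 at 0.41 and 1.0 FPKM. Aldh1a1 therefore held 84.6% of the summed FPKM of the 3 enzymes in control and 50.7% in Seh1cKO. The share of Aldh1a2 was 11.9% in control and 45.7% in Seh1cKO, and that of Aldh1a3 3.48% and 3.55%. Summed over the 3 genes, the level was 11.8 FPKM in control and 28.2 FPKM in Seh1cKO, and the reads were 2.48-fold higher (2.24 to 2.76). In Seh1cKO the levels of Aldh1a1 and Aldh1a2 were close, and without replicates their order there is not settled.

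The 9 fibroblast markers were all higher in Seh1cKO as well, 7 of them at least 2-fold on the log2(CPM + 1) scale, with CPM ratios from 1.61 for Fbln1 to 6.88 for Dcn (5.36 to 8.93). The interval of Dcn, a matrix proteoglycan, overlaps that of Aldh1a2. Those of most of the other fibroblast markers lie wholly below it, among them Col1a1 at 4.08 (3.80 to 4.39). Of the 12 markers of meningeal fibroblasts, 8 were measured and 3 of those, Tbx18, Dcn and Lum, were at least 2-fold higher on the same scale, none lower. Dcn and Lum are also among the 9 fibroblast markers. Tbx18, a transcription factor of this lineage, was at 0.965 and 5.78 CPM. Foxc1, at 3.96 and 8.84 CPM, and Foxd1, at 1.01 and 2.91 CPM, were within 2-fold once the pseudocount was added. Their summed level was 97.7 CPM in control against 115 CPM in Seh1cKO. Igf2, the most abundant of them in both libraries, was lower in Seh1cKO at 81.3 and 51.0 CPM. Slc22a6 was at 0 in both libraries and Slc47a1 at 0 in control. Of 8 mesothelial markers, Msln was at 0.0965 and 24.9 CPM, while Lrrn4 and Muc16 were at 0 in both libraries and Upk3b and Wt1 at 0 in Seh1cKO. The part of these cells in the Aldh1a2 difference was not tested.

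Reads of Aldh1a1 may be shared with Aldh1a7, a close rodent copy of it that lies 49490 bases away on chromosome 19. The deposited counts of Aldh1a1 were not whole (419.84 and 598.32). In the transcripts of both genes, 7.53% of the 50-base windows of Aldh1a1 occur letter for letter in Aldh1a7. Aldh1a7 was at 4.20 CPM in control against 10.97 CPM in Seh1cKO, 2.61-fold higher (2.03 to 3.39). Counted together, Aldh1a1 and Aldh1a7 had 507 and 824 reads and were 1.64-fold higher in Seh1cKO (1.46 to 1.83). No 50-base window was shared among Aldh1a1, Aldh1a2 and Aldh1a3, with 0 in each pair, nor between Crabp1 and Crabp2, also 0.

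**Figure D2:**
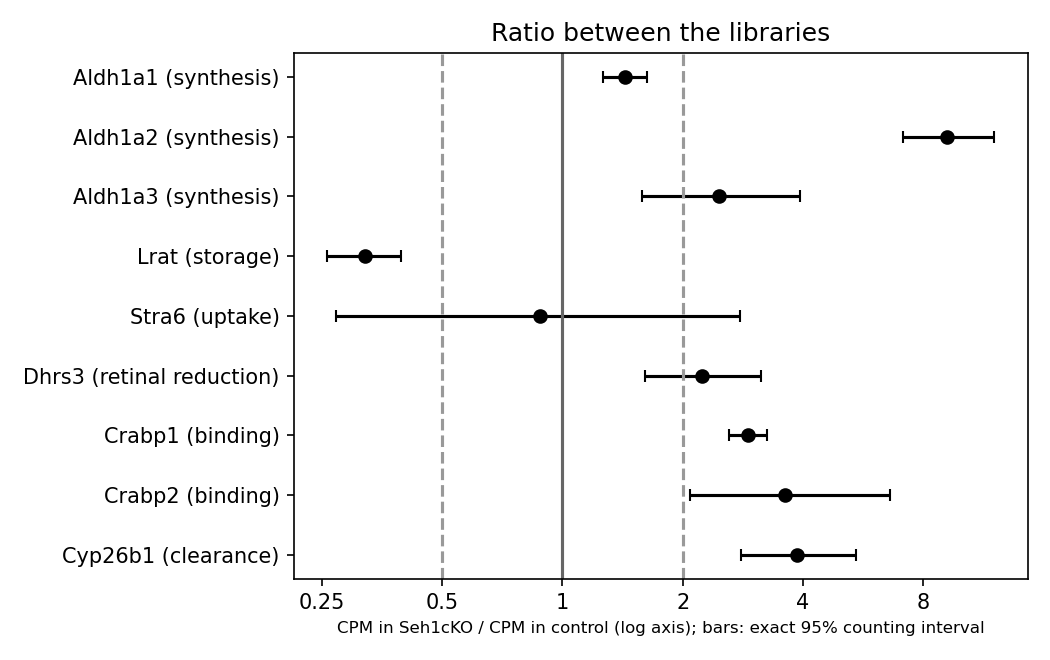
Ratio of CPM in Seh1cKO to CPM in control for the 9 genes on a log axis, with exact 95% counting intervals as bars, a solid line at equality and dashed lines at 2-fold. The bars of Aldh1a2, Crabp1, Crabp2 and Cyp26b1 lie wholly above 2-fold, that of Lrat wholly below 0.5, and that of Stra6 spans equality.

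Storage and retinal reduction went in different directions, and uptake gave too few reads for one. Lrat (chromosome 3, 82892582 to 82903974, minus strand), which turns retinol into retinyl esters, had 370 reads in control and 118 in Seh1cKO, or 17.8 and 5.73 CPM. It was 3.12-fold lower in Seh1cKO (2.53 to 3.87), the 82nd lowest log2 ratio of all measured genes at -1.49. Lrat was the single member that was lower with an interval clear of equality, and it was the third of the 9 by FPKM in control (3.3) and the seventh in Seh1cKO (1.06). Of the 12 oligodendrocyte lineage markers, 8 had a log2 ratio below 0 and 4 above, with Myrf and Mbp among the lower at CPM ratios of 0.245 and 0.101. The 4 above 0 were Pdgfra, Cspg4, Olig2 and Olig1. Pdgfra was the furthest up at a CPM ratio of 1.77, Olig2 was at 1.31, and Olig1 was near equality at 1.01 (0.989 to 1.03). The list as a whole therefore did not move in 1 direction. Of the 9 measured astrocyte markers, 7 were below 0 and 2 above. S100b, at a ratio of 0.247, was among the 2 that were at least 2-fold lower, and the summed level of all 10 was 11701 CPM in control against 7518 CPM in Seh1cKO. Whether Lrat reads came from either kind of cell was not tested.

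Dhrs3 (chromosome 4, 144892534 to 144928209, plus strand), which returns retinal to retinol and so limits its oxidation, had 54 and 120 reads, or 2.60 and 5.83 CPM. It was 2.24-fold higher in Seh1cKO (1.61 to 3.14) and within 2-fold once the pseudocount was added, at a log2 ratio of 0.92. Its gene lies within Vps13d on the opposite strand, which was at 53.7 CPM in control against 66.6 CPM in Seh1cKO. No source used here gives the strand setting of the counting, so reads of the 2 genes may not be fully apart. Stra6 (chromosome 9, 58063793 to 58154004, plus strand), the retinol receptor, had 8 reads in control and 7 in Seh1cKO. At 0.386 and 0.340 CPM it was below the 1 CPM floor, and a ratio of 0.881 (0.272 to 2.78) leaves differences of over 2-fold in either direction undetectable at this depth.

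The retinoic acid binding proteins were both higher in Seh1cKO, at very different levels. Crabp1 (chromosome 9, 54764748 to 54773110, plus strand), which holds retinoic acid in the cytoplasm and presents it to the degrading enzymes, had 452 reads in control and 1306 in Seh1cKO, or 21.8 and 63.4 CPM. It was 2.91-fold higher (2.61 to 3.24), the narrowest interval among the 6 members past 2-fold. Crabp2 (chromosome 3, 87948693 to 87953372, plus strand), which carries retinoic acid to its nuclear receptor, had 17 and 61 reads, or 0.820 and 2.96 CPM. It was 3.61-fold higher (2.08 to 6.59), so the intervals of both genes overlap. Per transcript length Crabp1 was the highest of the 9 members in both libraries, at 27.34 and 79.5 FPKM, against 0.93 and 3.36 FPKM for Crabp2. Crabp1 held 96.7% of the summed FPKM of this pair in control and 95.9% in Seh1cKO. In Seh1cKO 6.32% of all listed genes had a higher FPKM than Crabp1, and in control 18.5%.

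Cyp26b1 (chromosome 6, 84571414 to 84593908, minus strand), a cytochrome P450 that hydroxylates retinoic acid, had 48 reads in control and 184 in Seh1cKO, or 2.32 and 8.93 CPM. It was 3.86-fold higher in Seh1cKO (2.79 to 5.42), the 111th highest log2 ratio of all measured genes at 1.58. Its relatives Cyp26a1 and Cyp26c1 had 0 reads in both libraries, which allows up to 0.145 CPM in control against 0.146 CPM in Seh1cKO (a count of 3). Cyp26b1 was thus the one detected enzyme of the family. Both a synthesising enzyme, Aldh1a2, and a clearing enzyme, Cyp26b1, were higher in the same library, while the summed fibroblast and epithelial markers given above were higher there too. Fibroblasts and epithelia were not alone in this. The summed endothelial, mural, microglial and neuronal markers had Seh1cKO to control ratios of 2.15, 1.52, 2.12 and 1.08. In each of these lists 1 measured gene was at least 2-fold higher on the log2(CPM + 1) scale and 0 at least 2-fold lower. The part of any of these kinds of cell in the Cyp26b1, Crabp1 and Crabp2 differences was not tested.

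**Figure D3:**
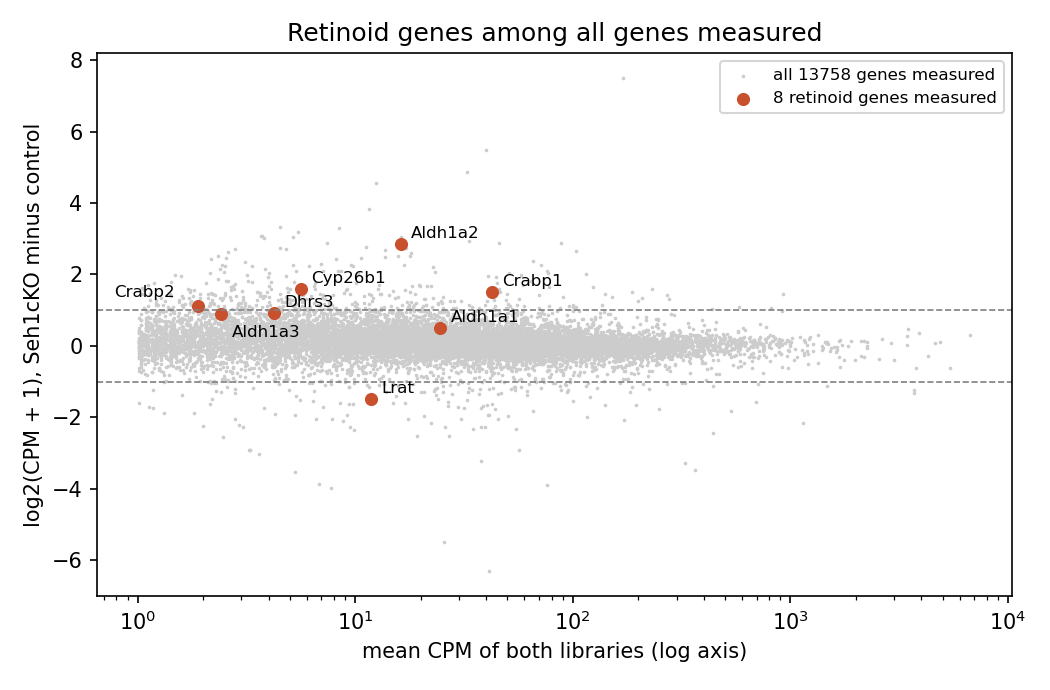
The log2(CPM + 1) difference, Seh1cKO minus control, against the mean CPM of both libraries on a log axis for all 13758 measured genes in grey and the 8 measured retinoid genes in colour, with dashed lines at 2-fold. Aldh1a2 stands highest of the 8 at 2.85 and Lrat lowest at -1.49, and Aldh1a1, Aldh1a3 and Dhrs3 lie inside the dashed lines.

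The rest of the retinoid pathway, taken from lists of known genes, stood closer to equality. The members were proposed with their ratios known, so nothing is read from that contrast. Of 26 other enzymes and carriers, 15 were measured, and all 15 were within 2-fold on the log2(CPM + 1) scale, with a median of 0.17. Without the pseudocount 3 of them, Ttr, Adh7 and Rpe65, passed 2-fold. Rdh10, which makes the retinal that the Aldh1a enzymes use, was at 14.5 CPM in control against 26.6 CPM in Seh1cKO, 1.83-fold higher (1.59 to 2.11). Ttr, the plasma carrier of the retinol binding protein and a marker of choroid plexus, was at 17.6 and 35.2 CPM, 2.00-fold higher (1.76 to 2.28). Rlbp1, a retinal binding protein, was 1.51-fold higher (1.38 to 1.65), and Rpe65, the retinoid isomerase, had 14 and 35 reads. The most abundant of the list was Fabp5, a fatty acid binding protein that can also carry retinoic acid, at 794 and 626 CPM, a ratio of 0.788 (0.770 to 0.807). The 8 choroid plexus markers summed to 27.4 CPM in control against 51.0 CPM in Seh1cKO, but most of that sum is Ttr itself. Of the 8, 4 were measured, Ttr among them, and all 4 were above 0 and within 2-fold on the log2(CPM + 1) scale. The measured markers other than Ttr had log2 ratios from 0.465 to 0.806. The part of those cells in the Ttr difference was not tested.

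The receptors that read retinoic acid were all within 2-fold on the log2(CPM + 1) scale, 7 of 7, with a median of -0.21. Rara was at 23.5 CPM in control against 23.4 CPM in Seh1cKO, a ratio of 0.994 (0.874 to 1.13). Rarb, itself a classical retinoic acid target, had 22 and 36 reads, a ratio of 1.65 (0.943 to 2.94) that is not separated from equality. Rarg stood at 23.2 and 19.9 CPM, a ratio of 0.858 (0.750 to 0.981). Among the shared partners, Rxra stood at 1.10 (1.01 to 1.20) and Rxrb at 0.856 (0.794 to 0.922), while Rxrg, with 27 and 16 reads, had an interval of 0.300 to 1.15. Ppard, a lipid receptor that Fabp5 can serve, was the most abundant of the list by CPM, at 99.0 and 82.5. Of the 12 coregulators of these receptors all were within 2-fold on that scale, with a median of 0.11. Nrip1, a corepressor that retinoic acid induces, stood furthest at 3.09 and 6.89 CPM, and was the 1 coregulator past 2-fold without the pseudocount, at a CPM ratio of 2.23 (1.65 to 3.05). The corepressor Ncor1 was near equality, at a ratio of 1.02 (0.971 to 1.07).

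Most measured retinoic acid targets outside the members were within 2-fold. Of 25 such genes 18 had reads and 13 were measured, 1 at least 2-fold higher, none lower and 12 within 2-fold on the log2(CPM + 1) scale, with a median of 0.09. The log2 ratio was above 0 for 10 of the 13 and below 0 for 3, and without the pseudocount 2 were past 2-fold higher, Gprc5a and Nrip1. The 1 past it on the log2(CPM + 1) scale was Gprc5a, a retinoic acid inducible membrane receptor that is strongly expressed in lung epithelium, with 11 reads in control and 128 in Seh1cKO, or 0.531 and 6.21 CPM. It was 11.7-fold higher (6.33 to 24.0), in a library in which 7 of 8 markers of simple epithelia were at least 2-fold higher. Btg2, an antiproliferative gene, was 1.75-fold higher (1.57 to 1.95) and Nr2f2, an orphan nuclear receptor, 1.43-fold higher (1.26 to 1.63). Tgm2, tissue transglutaminase, was at 13.5 and 8.54 CPM, 1.58-fold lower (1.30 to 1.92), and Rarres1 was 1.58-fold lower (1.14 to 2.21). Meis2 and Nr2f1, the most abundant targets, were at ratios of 1.02 (0.953 to 1.08) and 1.06 (1.00 to 1.13). The Hox genes of the list, classical targets in the embryo, were at 0 or below the 1 CPM floor. The part of epithelial cells in the Gprc5a difference was not tested.

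The enzyme and binding protein families to which the members belong were mostly level. Of 15 measured aldehyde dehydrogenases outside the members, 2 were at least 2-fold higher and 13 within 2-fold, with a median of 0.18. The 2 were Aldh1a7, given above, and Aldh3a1, an enzyme abundant in the corneal epithelium, with 23 and 190 reads, 8.31-fold higher (5.38 to 13.4). The abundant Aldh1l1 and Aldh2 were at ratios of 1.17 (1.13 to 1.20) and 1.18 (1.13 to 1.22). Of the other intracellular lipid-binding proteins 4 of 12 were measured and all 4 were within 2-fold. Fabp7, a brain fatty acid binding protein, was at 1594 CPM in control against 1440 CPM in Seh1cKO, a ratio of 0.903 (0.889 to 0.917).

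**Figure D4:**
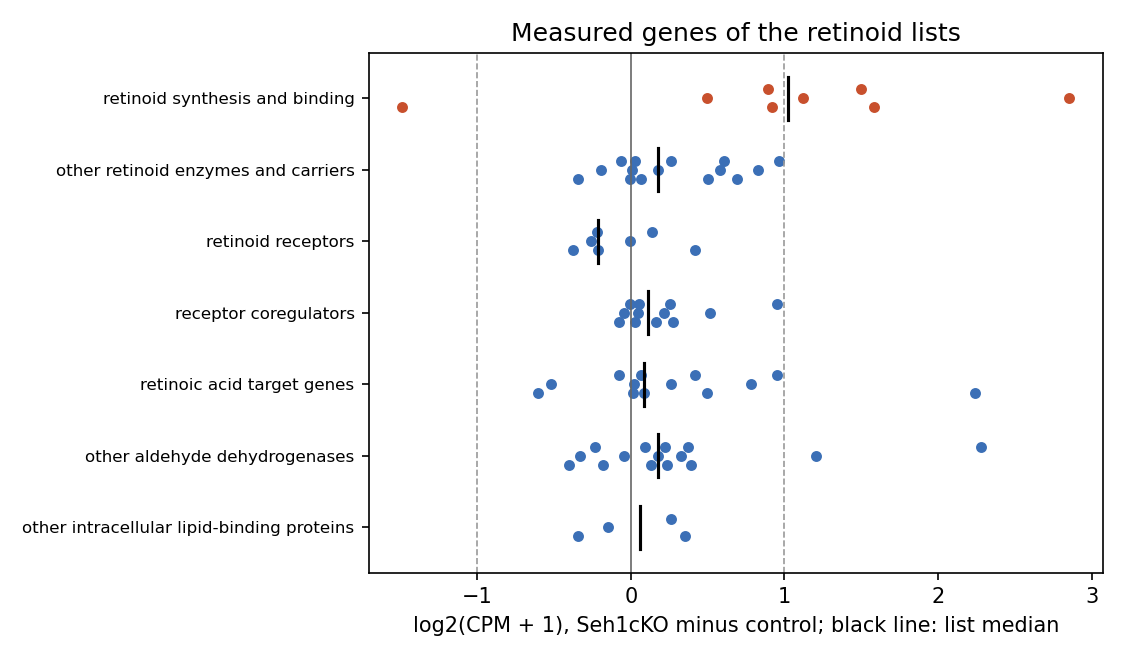
The log2(CPM + 1) difference, Seh1cKO minus control, of each measured gene in the retinoid synthesis and binding group and in 6 further lists, with a black line at each list's median and dashed lines at 2-fold. The median of the first group, which was proposed with its ratios known, is 1.02, and those of the other lists lie between -0.21 and 0.18. Gprc5a and Aldh3a1 are the points of the other lists beyond 2, and Aldh1a2 of the first group is at 2.85.

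The authors' deposited table of genes that differ between the libraries lists 7 of the 9 members, 6 as higher in Seh1cKO and 1, Lrat, as lower. Of all 18651 genes with a read in either library, 3.53% are listed as higher and 1.27% as lower. In the authors' deposited table the log2 fold changes of the members are 3.20 for Aldh1a2, 1.94 for Cyp26b1, 1.85 for Crabp2, 1.54 for Crabp1, 1.29 for Aldh1a3, 1.14 for Dhrs3 and -1.64 for Lrat. Aldh1a1 and Stra6 are not in it. These values come from the same 2 libraries, and no source used here names the test behind the table.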

How the data were processed

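RNA of 1 control and 1 Seh1cKO culture was compared. For each library the authors deposited expected counts per gene, of which 29.3% in control and 29.5% in Seh1cKO were not whole, and FPKM values, per the file headers. Per the submitters' processing notes, HTSeq and StringTie were used with mm10, without a role for each; no source used here names the aligner or the strand setting. A table of the authors' own comparison, also deposited by the authors, has FPKM values, log2 fold changes and p-values with their false discovery rates. Of the columns of per-sample values, 0 were left unmapped.

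Expected counts were rounded and scaled to 1000000 reads (CPM). Log2 ratios used a pseudocount of 1, measured genes had a mean of at least 1 CPM, and the threshold was 2-fold. Intervals are exact 95% Clopper-Pearson intervals. With 1 library per group they cover counting error only. Reads carry no molecular identifiers, so copies of 1 molecule cannot be told from separate molecules. A check on simulated data drew counts with counting error alone, the setting these intervals assume. It therefore says nothing about variation between cultures. Coordinates and sequences are from RefSeq on GRCm38.p6, the assembly of mm10, which matched 18611 of 18651 identifiers; strands without a promoter entry are from GENCODE. Python 3.11.15, pandas 2.3.3 and scipy 1.17.1 were used.

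The members, 6 further pathway lists and 12 marker lists were chosen with earlier results of these data known. Named genes were all members, all receptors, Aldh1a7, up to 4 genes per pathway list by absolute log2 ratio and the 2 most abundant, and of markers the 3 most abundant and those at 0, not all of which are reported here. Rlbp1, Rarres1, Nr2f2, the meningeal factors, Fbln1, Dcn, Lum, Igf2, Epcam, S100b, Myrf, Mbp, Pdgfra, Cspg4, Olig2 and Msln were added after their values were seen where that rule does not name them. No gene was named for a similar pattern, since 2 libraries allow no measure of likeness.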

Additional observations from a re-analysis of the deposited data

How the results depend on the processing

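No paired analysis was possible because each group has 1 library; leaving out a replicate was not possible either. The log2 ratios of all 9 members kept their sign in all 8 alternatives run for single genes (pseudocounts of 0.1 and 5, median of ratios, TMM and upper quartile scaling, deposited FPKM, unrounded counts, and no pseudocount, the last chosen after seeing the data). That is no support for the signs, since a pseudocount shared by both libraries cannot change one. The 3 scalings moved the libraries by factors of only 1.03 to 1.06, and all alternatives reuse the same reads. Aldh1a2 ranged from 2.06 to 3.20, Lrat from -1.64 to -1.06, Crabp1 from 1.35 to 1.54, Cyp26b1 from 0.93 to 1.95 and Crabp2 from 0.45 to 1.85; the low ends for the members under 10 CPM come from the pseudocount of 5 or the FPKM scale, which shrink low values by construction. Members at least 2-fold higher numbered 4, and 2 with a pseudocount of 5 and 6 with 0.1 or none. The count of all genes at least 2-fold higher, 394, was 637 with a pseudocount of 0.1, 141 with 5, 228 on the FPKM scale, 228 with a floor of 5 CPM and 676 with no pseudocount; the 178 lower genes were 116 with a pseudocount of 5. The median of all genes, 0.07, was -0.005 with median of ratios and -0.011 with TMM scaling. The median of the 4 other lipid-binding proteins, 0.06, turned to -0.014 with median of ratios, -0.020 with TMM, -0.073 with no floor and -0.147 with a floor of 5 CPM; the other list medians kept their sign. Depth limits the members with few reads, such as Stra6 and Crabp2.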

Other observations

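Some of the nearest measured genes on either side of the retinoid members were also higher in Seh1cKO. Not all are close, as the distances run from 2242 to 1471443 bases. Of the 18 measured genes that flank the 9 members on either side, 5 (27.8%) were at least 2-fold higher on the log2(CPM + 1) scale and 0 at least 2-fold lower, beside 2.86% and 1.29% of all measured genes, and their median log2 ratio was 0.11. Under median of ratios, TMM or upper quartile scaling, and with a pseudocount of 5, the count was 3. The 5 genes, named after their values were seen, are Anxa1, a lipid-binding annexin beside Aldh1a1 (10.1 CPM in control and 81.7 CPM in Seh1cKO), Aldh1a7 on the other side of Aldh1a1, Lrrk1, a kinase 2551 bases from Aldh1a3 (9.60 and 28.2 CPM), Tnfrsf1b, a tumour necrosis factor receptor beside Dhrs3 (1.25 and 3.59 CPM), and Nes, the intermediate filament nestin, 17721 bases from Crabp2 (284 and 584 CPM). Both flanking genes of Aldh1a2 and of Crabp1, the members with the most reads in Seh1cKO, were near equality, with log2 ratios from -0.02 to 0.12. No test was run on this count, and genes of one region are not independent.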
